A study of Homo sapiens with 16 samples.

Results

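Processed pseudogenes are copies of spliced messenger RNAs that were reverse transcribed and inserted back into the genome, so they carry no introns and resemble the coding sequence of a parent gene elsewhere. Ribosomal protein genes, translation factors and other highly expressed housekeeping genes have left many of them. Most are not known to be translated, and a sequencing read from a parent messenger RNA can match several copies equally well. The measurements below are reverse-transcription stops read for pseudouridine mapping: CMC is a carbodiimide that stays bound to pseudouridine, and the bulky base halts the reverse transcriptase. Terminator, an exonuclease, removes RNA that starts with a monophosphate.

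The members are all listed positions whose gene has the biotype processed pseudogene or transcribed processed pseudogene, outside the mitochondrial, X and Y chromosomes. They were chosen by that annotation and not by any measured value. There were 59305 such positions of 719918 listed in all (8.24%), in 2585 genes, with 40936 distinct sequences. Transcribed processed pseudogenes held 3029 of these positions in 141 genes. A position was marked as shared when the bases listed around it, 31 in most cases, also stood at a protein-coding gene in any table. This held for 29122 positions (49.1%), and 30183 were unshared.

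The groups, each of 2 libraries of polyadenylated RNA, were as follows. HEK293T cells, a human embryonic kidney line, were treated with CMC and Terminator, with CMC alone (CMC+), or with no CMC (CMC-). HCT116-shDKC1 cells are HCT116 cells with a knockdown of DKC1 by the hairpin shDKC1-1, in 1 line, and were treated with CMC and Terminator or left without CMC. HCT116 cells, a human colorectal carcinoma line, were treated with CMC and Terminator, with CMC alone, or with no CMC. The labels give the same 2 adapter steps (RA3 and DA3) for every group. They add AP5 and RE to the HEK293T Terminator libraries and XhoI to the HCT116 Terminator libraries. DKC1 encodes dyskerin, the pseudouridine synthase that guide RNAs of the H/ACA class direct to its targets. Nothing in the labels says that the replicates came from separate cultures, so p-values measure only the spread between these samples, which may be technical.

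Library totals ran from 8653000 to 31262000 reads. DKC1 itself had 2 and 1 listed positions in the HCT116-shDKC1 tables, with median CMC- coverage of 5.5 and 2.0 reads. It had 2 and 3 in the HCT116 tables with Terminator, with 12.0 and 14.0 reads, and 30 to 74 in the HEK293T tables. These few positions put the knockdown libraries below the wild-type ones and carry no test. Of the epithelial markers, KRT8, KRT18, KRT19 and EPCAM were listed in every HCT116 and HCT116-shDKC1 Terminator table, and CDH1 in 0 to 4 positions. In HEK293T tables KRT8, KRT19, EPCAM and CDH1 had 0 positions and KRT18 0 or 1, while VIM, a mesenchymal filament gene, had 369 to 459 positions there and 0 in the 4 Terminator tables of the other lines. The HCT116 tables of CMC alone were not counted for markers.

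Every listed position had 5 or more stop reads in the CMC library and, where a control column was used, 1 or more in the control. The stop ratio with CMC was as high as the control's or higher, apart from 0 to 6 positions per HEK293T table. A higher stop percent with CMC than without at a listed position is therefore partly set by the listing. A position absent from a table is not a position without stops.

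The following sequences (build hg38, written in the sense of the transcript with T for U) carry the main findings, and the capital marks the listed position. The first group repeats a parent's sequence exactly and shows how stop reads were assigned among copies. 
EEF1A1P5, chr9:133019524, plus strand: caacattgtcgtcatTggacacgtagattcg
RPS2P46, chr17:19446188, minus strand: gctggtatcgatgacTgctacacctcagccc
RPL13P12, chr17:17383765, minus strand: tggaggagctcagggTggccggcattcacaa
RPL7AP6, chr14:69885443, minus strand: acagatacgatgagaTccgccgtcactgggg

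The second group, also shared with a parent, holds positions with more stop reads after CMC and Terminator.
FAUP1, chr18:74390197, minus strand: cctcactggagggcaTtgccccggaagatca
RPS4XP2, chr20:4629878, minus strand: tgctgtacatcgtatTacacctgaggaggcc
KRT8P32, chr5:98393267, minus strand: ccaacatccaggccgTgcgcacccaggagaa
HSP90AB3P, chr4:87893767, plus strand: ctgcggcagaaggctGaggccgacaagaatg

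The third group had no listed protein-coding copy of the same bases. Whether an unlisted position of the parent holds them was not compared.
RPL10P3, chr9:117180768, minus strand: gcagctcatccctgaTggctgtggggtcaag
MTND5P11, chr5:134925991, minus strand: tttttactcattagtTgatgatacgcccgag
GCSHP5, chr1:168056409, minus strand: atggcgctgcgagTggtgcggagcgtgcg

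Pseudogenes of ribosomal proteins and of EEF1A1 made up much of the set. RPL pseudogenes, copies of large-subunit ribosomal protein genes, held 12083 positions in 455 genes, and RPS pseudogenes, copies of small-subunit genes, held 8820 in 250. EEF1A1 pseudogenes, copies of the factor that brings aminoacyl-tRNA to the ribosome, held 7433 positions in only 30 genes. Keratin (KRT) pseudogenes held 1971 in 102 genes, and those of FTH1, the ferritin heavy chain, 1181 in 15. Nuclear copies of mitochondrial genes (MT-derived) held 2098 in 71, and 25719 positions fell in 1662 other genes. Families were set by gene symbol alone, so the other genes hold further copies of the same parents. Among them 3448 positions shared the bases of an RPS gene, 2379 of an RPL gene and 145 of EEF1A1. EEF1A1P5 alone had 1035 positions, of which 92.1% shared a sequence with a protein-coding gene, and EEF1A1P6 had 972 (89.7%).

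Sharing differed by family. It was 59.0% of positions for EEF1A1, 58.8% for FTH1, 55.7% for RPL and 52.1% for RPS, against 31% for KRT and 27.2% for MT-derived copies. The genes that shared most positions were EEF1A1 (4534 positions in 32 pseudogenes), RPS2 (2094 in 40), RPSA, a ribosomal protein also known as a laminin receptor (1540 in 35), and RPL7 (777 in 32). Transcribed processed pseudogenes were shared at 46.7%, the others at 49.2%. Uridine stood at 31.8% of the members, at 31.7% of all listed positions and at 32.5% of protein-coding ones. Of the members, 28334 (47.8%) were listed in 1 table only and 67 in all 10.

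Processed pseudogenes took a far larger share of the HCT116-shDKC1 and HCT116 Terminator tables than of the others. They were 24.64 and 22.21% of positions in HCT116-shDKC1 and 22.69 and 20.0% in HCT116 with CMC and Terminator. With CMC alone HCT116 had 3.43 and 3.57%. HEK293T had 2.75 and 2.6% with CMC and Terminator and 3.14 and 3.08% with CMC alone. The high tables do not overlap the low ones. Their share of treated stop reads was smaller, at 6.0 and 4.76% in HCT116-shDKC1 and 5.75 and 4.21% in HCT116, and lay between 2.01 and 2.48% elsewhere. The 4 tables with a high share are also those in which every stop and covering read number is whole. In the other 6, 85.9 to 89.2% of members had a fractional stop-read number, against 30.8 to 34.6% of protein-coding positions. How reads matching several places were counted is not stated. Whole read numbers came only with HCT116 or HCT116-shDKC1 cells and Terminator together. Counting and this combination of cells and treatment therefore cannot be told apart in this share.

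**Figure D1:**
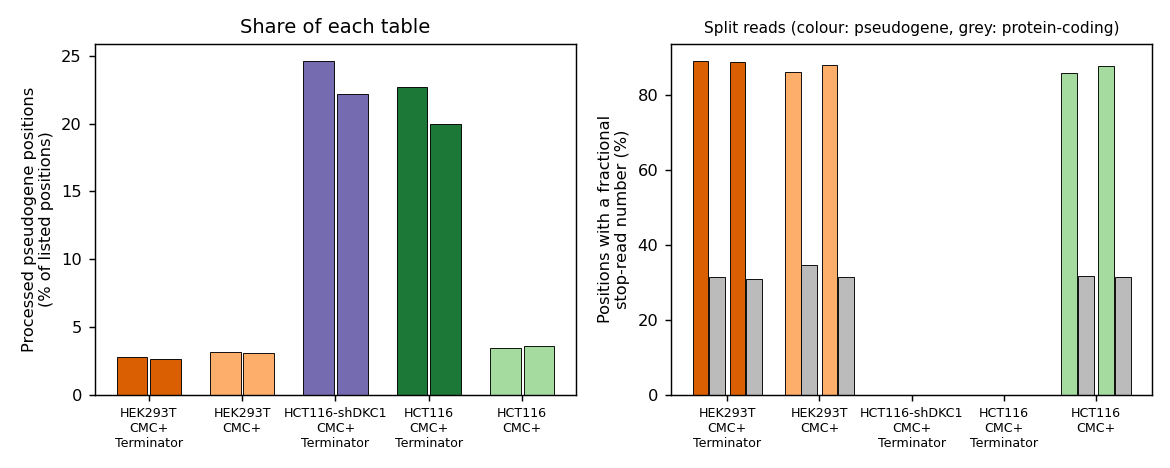
Left, processed pseudogene positions as a percent of the positions listed in each table, 1 bar per replicate. Right, percent of pseudogene positions (colour) and protein-coding positions (grey) with a fractional stop-read number. The HCT116-shDKC1 and HCT116 Terminator tables reach 20.0 to 24.64% and hold no fractional number, so they have no bar on the right.

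Keratin and ferritin copies differed in number between the cell lines and, within HCT116, between treatments. KRT pseudogenes had 879 and 619 positions in HCT116-shDKC1 and 783 and 676 in HCT116 with CMC and Terminator. They had 34 and 32 in HCT116 with CMC alone and 0 in the 4 HEK293T tables. KRT8 had 363 to 400 protein-coding positions in each HCT116 and HCT116-shDKC1 Terminator table and 0 in HEK293T. FTH1 pseudogenes had 675 and 518 positions in HCT116-shDKC1, 552 and 483 in HCT116 with CMC and Terminator, 31 and 49 in HCT116 with CMC alone, and 3 to 6 in each HEK293T table. The listing needs stop reads, so these counts describe coverage as well as stops. The HCT116-shDKC1 and HCT116 Terminator tables also hold whole read numbers and the others do not. Counting therefore cannot be told apart from cells and treatment in these counts.

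Shared and unshared members differed in coverage and in the share of covering reads that stopped. With CMC and Terminator, stop reads over covering reads, each summed over positions, came to 6.51 and 6.05% at shared and 19.0 and 18.8% at unshared positions of HCT116-shDKC1. In HCT116 they were 6.64 and 6.5% at shared positions and 19.4 and 19.8% at unshared ones. The CMC- libraries of HCT116 showed 4.08 and 3.78% at shared and 12.5 and 12.2% at unshared positions. HEK293T with CMC and Terminator had 8.21 and 8.27% at shared and 19.1 and 19.3% at unshared positions. In every one of these libraries the unshared value was above the shared one, without CMC too. Median coverage in HCT116 with CMC and Terminator was 90 and 96 reads at shared positions and 25 and 25 at unshared ones. A minimum of 5 stop reads sets a higher floor on the stop percent where coverage is low.

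Set beside the protein-coding position of the same bases in the same library, a pseudogene position often had exactly the same stop reads and nearly always fewer covering reads. Stop reads were equal in 47.3 and 39.8% of 13400 and 9740 pairs in HCT116-shDKC1 and in 47.6 and 42.5% of 12029 and 9965 pairs in HCT116, both with CMC and Terminator. HEK293T gave 46.3 and 45.1% of 3203 and 3401 pairs with CMC and Terminator and 55.6 and 50.9% of 2535 and 3312 with CMC alone. HCT116 with CMC alone gave 42.8 and 42.2% of 1315 and 1998. Stop reads were lower at the pseudogene in 43.8 to 58.9% of pairs and higher in 0.3 to 1.28%. Except in HEK293T with CMC alone, lower was more common than equal. Coverage was lower at the pseudogene in 94.4 to 99.0% of pairs. Taken pair by pair, the pseudogene's coverage was at the median 71.1 and 58.3% of the partner's in HCT116-shDKC1, 69.6 and 62.1% in HCT116, and 66.3 and 64.0% in HEK293T, all with CMC and Terminator. Equal stop reads over fewer covering reads make a higher stop percent. Its median was 8.22 and 7.75% at pseudogenes, against 6.4 and 5.28% at their partners, in HCT116-shDKC1. It was 8.41 and 8.16%, against 6.38 and 5.88%, in HCT116, and 9.47 and 9.62%, against 6.8 and 6.82%, in HEK293T. Positions of a pair can share reads and are not independent measurements, so no test was made.

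**Figure D2:**
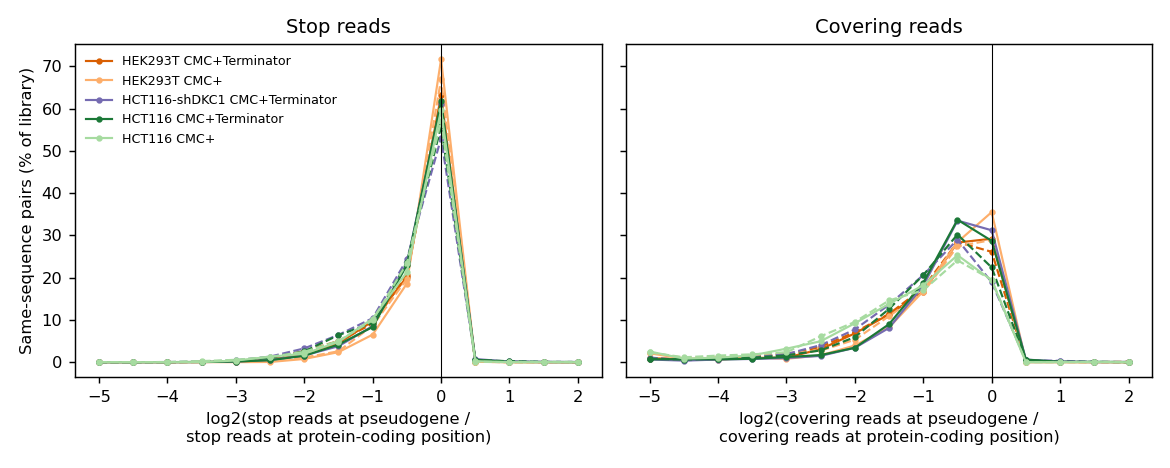
Distribution over same-sequence pairs of the log2 ratio of stop reads (left) and of covering reads (right), pseudogene over protein-coding position, as percent of the pairs of a library. Solid lines are replicate 1 and dashed lines replicate 2. Stop reads peak at a log2 ratio of 0 in every library, whereas covering reads spread below 0, with 94.4 to 99.0% of pairs lower at the pseudogene.

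MT-derived copies stood apart among the families in this respect. Their stop reads equalled those of the protein-coding position in only 2.2 to 19.8% of pairs, and the median over pairs of their coverage was 22.6 to 49.7% of the partner's. At MTND4P12 on chromosome 5 (chr5:134927156), a copy of MT-ND4, which encodes a subunit of respiratory complex I, HCT116 with CMC and Terminator had 11 and 5 stop reads of 381 and 321. MT-ND4 itself had 31 and 35 of 700 and 801. For FTH1 copies stop reads were equal in 58.7 and 38.5% of pairs and for KRT copies in 43.3 and 34.6%, in the same libraries.

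EEF1A1P5 at the uridine shown above was listed in all 10 tables, and its stop reads were within 1 read of those at EEF1A1 in every library. With CMC and Terminator HCT116 had 27 and 30 stop reads of 671 and 681 at EEF1A1P5 and 27 and 30 of 687 and 708 at EEF1A1. In CMC- libraries EEF1A1P5 had 42 and 48 of 1284 and 1532, and EEF1A1 43 and 48 of 1333 and 1586. HEK293T with CMC and Terminator had 12.14 and 13.04 stop reads at both, of 166.0 and 207.4 at the pseudogene and 169.0 and 212.4 at the gene. Another copy, EEF1A1P13, had 24 and 25 of 621 and 622 in HCT116, and EEF1A1P11 had 13 and 13 of 398 and 347. Copies of the same 31 bases thus held from nearly all to fewer of the stop reads listed at the gene. The change at EEF1A1P5 did not pass the test in any of the Terminator comparisons, at 0.82 ± 0.23 in HEK293T (log2 ± SE, edgeR, adjusted p = 0.118), -0.44 ± 0.17 in HCT116-shDKC1 (adjusted p = 0.108) and -0.33 ± 0.18 in HCT116 (adjusted p = 0.287).

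RPS2P46 and its copies show the same for RPS2, a small-subunit ribosomal protein. The 31 bases stand at 11 places, 9 of them members. In HCT116 with CMC and Terminator RPS2P46 had 21 and 22 stop reads of 456 and 455. RPS2P5 had 21 and 22 of 450 and 448, and RPS2P48 had 21 and 22 of only 236 and 193. RPS2P35 had 9 and 7 of 245 and 212, and RPS2 had 34 and 40 of 580 and 628. The same numbers of stop reads thus recurred at most copies, while coverage among those copies ran from 236 to 456 reads in replicate 1. Among sequences with at least 5 listed copies, stop reads were the same at all copies in 23.5 to 24.4% of the HCT116-shDKC1 and HCT116 Terminator cases.

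FTH1P10 gave the same picture for ferritin, at a uridine whose bases stand at 8 members and at FTH1. HCT116 with CMC and Terminator had 13 and 6 stop reads of 155 and 144, and CMC- had 6 and 8 of 324 and 356. FTH1P2, FTH1P3, FTH1P5, FTH1P7, FTH1P15 and FTH1P20 had 13 and 6 stop reads too, with coverage from 130 to 154 and from 115 to 144. The eighth member, AL391261.3, had 10 and 5 of 105 and 88. FTH1 had 13 and 8 of 178 and 185. The change against CMC- was 0.76 ± 0.42 (log2 ± SE, edgeR, adjusted p = 0.223) at FTH1P10 and did not pass the test.

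RPL13P12 and RPL7AP6 are the opposite case, where a pseudogene kept the parent's stop reads but little of its coverage. RPL13P12 in HEK293T had 13.0 and 17.5 stop reads of 36.23 and 55.3 with CMC and Terminator (35.9 and 31.6%), against 5.667 and 5.0 of 21.43 and 17.9 in CMC- (26.4 and 27.9%). RPL13, a large-subunit protein gene, had 15 and 19.5 of 524.2 and 570.3 with CMC and Terminator. RPL7AP6 in HEK293T had 11.6 and 14.1 of 20.4 and 20.53 with CMC and Terminator (56.9 and 68.7%), against 9.1 and 6.833 of 22.73 and 16.62 in CMC- (40 and 41.1%). RPL7A had 12.6 and 15.1 of 323.4 and 356.5 with CMC and Terminator. Both pseudogenes had a high stop percent without CMC as well, and neither had a covering read number near its parent's.

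**Figure D3:**
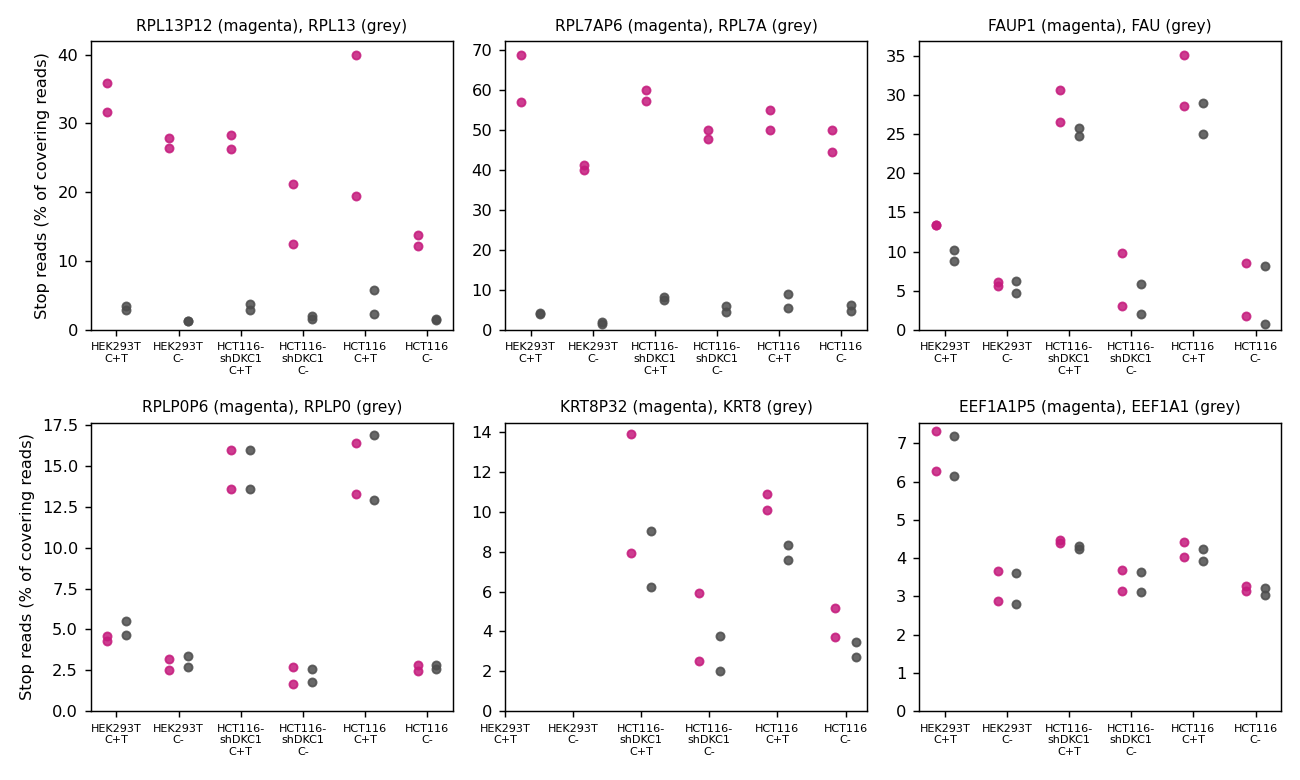
Stop reads as percent of covering reads at 6 pseudogene positions (magenta) and at the protein-coding position of the same bases (grey), 1 point per library, for CMC with Terminator (C+T) left of CMC- (C-). RPL13P12 and RPL7AP6 lie far above RPL13 and RPL7A in every library, CMC- included, whereas EEF1A1P5 and RPLP0P6 lie close to their parents. KRT8P32 is not listed in HEK293T.

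Comparisons between treatments were made at positions listed in all 4 tables of a fit, with edgeR's quasi-likelihood test on stop reads scaled by library totals. A position was called at a Benjamini-Hochberg adjusted p under 0.05, over all positions of all gene types, with a fold of at least 2. Of 740 members in the HEK293T fit, 264 passed the filter, which asked for 10 stop reads or more in 2 or more libraries. Of 5321 in the HCT116-shDKC1 and HCT116 fit, 4174 passed. At the same 740 positions, stop reads were 9.97 and 10.1% of covering reads in HEK293T with CMC and Terminator, 8.95 and 7.88% with CMC alone, and 7.05 and 6.55% in CMC-. At the 5321 positions HCT116-shDKC1 had 9.42 and 8.33% with CMC and Terminator, against 5.53 and 5.04% in CMC-. HCT116 had 9.62 and 9.28%, against 5.64 and 4.97%.

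In HEK293T with CMC alone no member was called against CMC-, by edgeR or by DESeq2, and 0 had an unadjusted edgeR p under 0.05 in either direction, beside 3.62% of all positions higher and 0.0877% lower. Of all 14824 positions tested 0.465% were called higher. The members' median log2 change was 0.19, beside 0.14 for all positions.

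With CMC and Terminator in HEK293T, 31 members were higher than in CMC- and 0 lower, which is 11.7% of those tested, where 33.4% of all positions tested were called higher. The 31 positions held 29 sequences in 25 genes. RPL pseudogenes gave 12 of 89, RPS pseudogenes 2 of 34, EEF1A1 pseudogenes 0 of 31 and MT-derived copies 2 of 21. Pseudogenes with other symbols gave 15 of 89. Among positions of protein-coding RPL genes 269 of 1065 were called, among those of RPS genes 132 of 723 and at EEF1A1 2 of 66. The members' median log2 change was 0.66, beside 0.82 for all positions. Tested against covering reads of the same position, 20 members were higher (7.58%), beside 12.3% of all. With TMM scaling, which moved the median of all positions to 0.03, 0 members were higher and 0 lower, beside 1.96% of all higher and 1.12% lower. DESeq2 called 0. At an unadjusted p under 0.05, TMM scaling gave 0 higher and 14 lower (5.3%), beside 8.93 and 9.86% of all positions. DESeq2 gave 0 higher and 4 lower (1.52%), beside 4.9 and 4.2% of all. On library totals without CMC+Terminator replicate 1 or 2, the members' median log2 change was 0.62 each time, beside 0.81 and 0.82 for all positions. Without CMC- replicate 1 or 2 it was 0.58 and 0.69, beside 0.77 and 0.86.

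HSP90AB3P, a copy of the chaperone gene HSP90AB1, had the largest change among the members named for HEK293T. At the G shown above it had 14.83 and 16.33 stop reads of 80.71 and 65.67 with CMC and Terminator (18.4 and 24.9%), against 5.0 and 6.0 of 64.58 and 76.95 in CMC- (7.74 and 7.8%). The groups do not overlap, and the log2 change was 1.58 ± 0.21 (SE, edgeR, adjusted p = 0.0031), or 1.45 against covering reads with adjusted p = 0.0194. TMM scaling gave 0.78 (adjusted p = 0.39). In HCT116-shDKC1 the same position had 19.0 and 19.6% with CMC and Terminator and 17.9 and 17.8% in CMC-. At RPL13P12 the log2 change was 1.57 ± 0.22 (adjusted p = 0.00317), next to 1.62 ± 0.20 at RPL13, and only 0.29 against covering reads (adjusted p = 0.646), so that call was lost. RPL10P3, a copy of a large-subunit protein gene with no listed protein-coding copy of its bases, had 30.4 and 36.2% stops with CMC and Terminator and 16.7 and 21.7% in CMC-. Its log2 change of 1.40 ± 0.23 (adjusted p = 0.00787) became 0.77 against covering reads (adjusted p = 0.231). SERBP1P5, a copy of an mRNA-binding protein gene, had 13.5 and 12.4% with CMC and Terminator and 6.79 and 5.31% in CMC-, a log2 change of 1.46 ± 0.21 (adjusted p = 0.00509). That call too was lost against covering reads, at a log2 change of 1.05 and adjusted p = 0.0922.

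With CMC and Terminator in HCT116-shDKC1, 329 members were higher than in CMC- and 21 lower. That is 7.88% of those tested, where 24.3% of all positions were called higher and 0.176% lower. The median log2 change was -0.10, beside 0.39 for all positions. Against covering reads 753 members were higher (18.0%), beside 19.5% of all, with a median of 0.61 beside 0.57. TMM scaling, which moved the median of all positions to -0.05, gave 97 higher and 471 lower, beside 11.7% of all higher and 5.19% lower. DESeq2 gave 8 higher and 9 lower (0.192 and 0.216%), beside 1697 higher and 79 lower of all 26153 positions. The 329 positions held 218 sequences in 190 genes. On library totals without CMC+Terminator replicate 1 or 2, the members' median was -0.12 and -0.04, beside 0.42 and 0.37 for all positions. Without CMC- replicate 1 or 2 it was -0.14 and -0.03, beside 0.39 and 0.42.

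In HCT116 the same comparison gave 493 members higher and 10 lower. That is 11.8% of those tested, where 26.0% of all positions were called higher and 0.0803% lower. The median log2 change was 0.06, beside 0.45 for all positions. Against covering reads 972 members were higher (23.3%), beside 24.8% of all, with a median of 0.68 beside 0.64. TMM scaling, with a median of all positions of -0.04, gave 120 higher and 388 lower, beside 12.2% of all higher and 4.99% lower. DESeq2 gave 13 higher and 11 lower (0.311 and 0.264%), beside 1610 higher and 119 lower of all 26153 positions. The 493 positions held 311 sequences in 237 genes. On library totals without CMC+Terminator replicate 1 or 2, the members' median was 0.04 and 0.10, beside 0.43 and 0.46 for all positions. Without CMC- replicate 1 or 2 it was 0.06 and 0.08, beside 0.47 and 0.44. In HCT116-shDKC1 and HCT116 the direction of the set on stop reads therefore depends on scaling. Per covering read the members' called share lay near that of all positions. At an unadjusted edgeR p under 0.05 their share lay below, at 34.0% beside 52.9% in HCT116-shDKC1 and 39.7% beside 58.8% in HCT116. Of all positions, 0 were called lower per covering read, a direction for which the listing leaves almost no room.

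**Figure D4:**
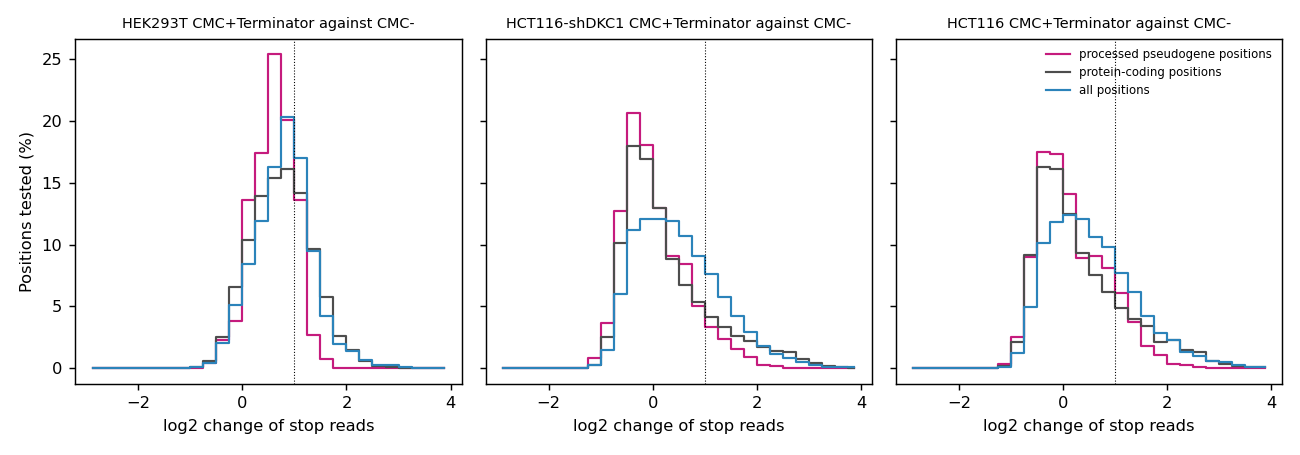
Distribution of the log2 change of stop reads, CMC with Terminator over CMC-, scaled by library totals, in HEK293T, HCT116-shDKC1 and HCT116, as percent of positions tested. The dotted line marks a 2-fold change. Pseudogene positions (magenta) have medians of 0.66, -0.10 and 0.06, beside 0.82, 0.39 and 0.45 for all positions (blue).

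Families differed in how many positions were called, and the counts depended on what the stop reads were set against. On library totals in HCT116-shDKC1, where 24.3% of all positions were called higher, RPL pseudogenes gave 89 higher of 701 (12.7%), RPS 64 of 719 (8.9%), KRT 7 of 42 (16.7%), MT-derived 5 of 204 (2.45%), EEF1A1 16 of 1179 (1.36%) and FTH1 0 of 108. In HCT116, where 26.0% of all were called, RPL pseudogenes gave 144 of 701 (20.5%), KRT 9 of 42 (21.4%), RPS 100 of 719 (13.9%), MT-derived 7 of 204 (3.43%), FTH1 3 of 108 (2.78%) and EEF1A1 23 of 1179 (1.95%). Protein-coding genes of the same families gave, in HCT116, 182 of 1164 for RPL, 26 of 95 for KRT, 132 of 759 for RPS, 10 of 61 for FTH1 and 4 of 291 for EEF1A1.

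Against covering reads the family counts were higher, by ratio most of all for EEF1A1 and FTH1 copies. In HCT116-shDKC1, where 19.5% of all positions were called, RPL copies gave 180, RPS 172, EEF1A1 78 (6.62%), FTH1 11 (10.2%), MT-derived 10 and KRT 9. In HCT116, where 24.8% of all were called, RPL copies gave 238, RPS 241, EEF1A1 107 (9.08%), FTH1 16 (14.8%), MT-derived 16 and KRT 10. Pseudogenes with other symbols gave 293 (24.0%) in HCT116-shDKC1 and 344 (28.2%) in HCT116. Shared and unshared members had these shares called on library totals: 7.91 and 7.84% in HCT116-shDKC1 and 12.2 and 11.1% in HCT116. Against covering reads the shares were 22.0% of shared and 11.6% of unshared members in HCT116-shDKC1, and 29.0 and 14.0% in HCT116.

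Of the members at a uridine, 3.53% were called higher on library totals in HCT116-shDKC1 and 6.5% in HCT116, beside 17.9 and 20.0% of all uridines tested. Of members at other bases, 11.9% were called in HCT116-shDKC1 and 16.8% in HCT116. All positions at any base gave 24.3 and 26.0%, so uridines were called less often over all positions too. Against covering reads the members at a uridine came to 14.3% in HCT116-shDKC1 and 19.2% in HCT116, and those at other bases to 21.5 and 27.1%. All positions at any base gave 19.5 and 24.8% there, and the share of all uridines was not taken. Of the distinct called sequences in HCT116, 27.7% had U at the listed position, beside 48.4% of those tested, and their median GC content was 60%, beside 53.3%. Over all positions the called sequences had 27.0% U, beside 38.4% of those tested, and a median GC content of 70%, beside 56.7%.

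Stop percent at the same positions had the same order of families in HCT116-shDKC1 and HCT116 with CMC and Terminator. KRT copies had the highest stop percent, with 19.2 and 16.6% in HCT116-shDKC1 with CMC and Terminator, against 10.1 and 9.01% in CMC-. In HCT116 they had 16.5 and 17.4%, against 9.02 and 8.6%. RPL copies had 11.6 and 10.7% in HCT116-shDKC1, against 6.36 and 5.75% in CMC-, and 12.6 and 12.0% in HCT116, against 6.5 and 5.82%. RPS copies had 9.5 and 9.24% in HCT116 with CMC and Terminator and 5.47 and 4.89% in CMC-. EEF1A1 copies were lowest, at 6.78 and 5.81% in HCT116-shDKC1 and 4.39 and 4.01% in CMC-, and at 6.66 and 6.43% in HCT116 and 4.44 and 3.93% in CMC-. FTH1 and MT-derived copies lay between RPL and RPS with CMC and Terminator, and their replicates overlapped each other. In HEK293T, EEF1A1 copies were again lowest, with 7.99 and 7.84% for CMC and Terminator, 7.08 and 6.25% for CMC alone and 5.89 and 5.37% in CMC-. Among the named families MT-derived copies were highest there, with 11.2 and 11.2%, 9.51 and 8.8%, and 7.41 and 7.46% in the same order of treatments. Median coverage over each family's listed members differed too. In HCT116 with CMC and Terminator it was 20 and 23 reads for KRT, 45 and 52 for RPL and 168 and 174 for EEF1A1. RPS copies, at 56 and 63, had less than FTH1 copies, at 70 and 68, and MT-derived ones, at 71 and 66. A minimum of 5 stop reads sets a higher floor where coverage is low, so the order of families was not separated from coverage. With 2 libraries a group no exact permutation test over libraries can pass 0.05, so the stop percents carry no test.

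**Figure D5:**
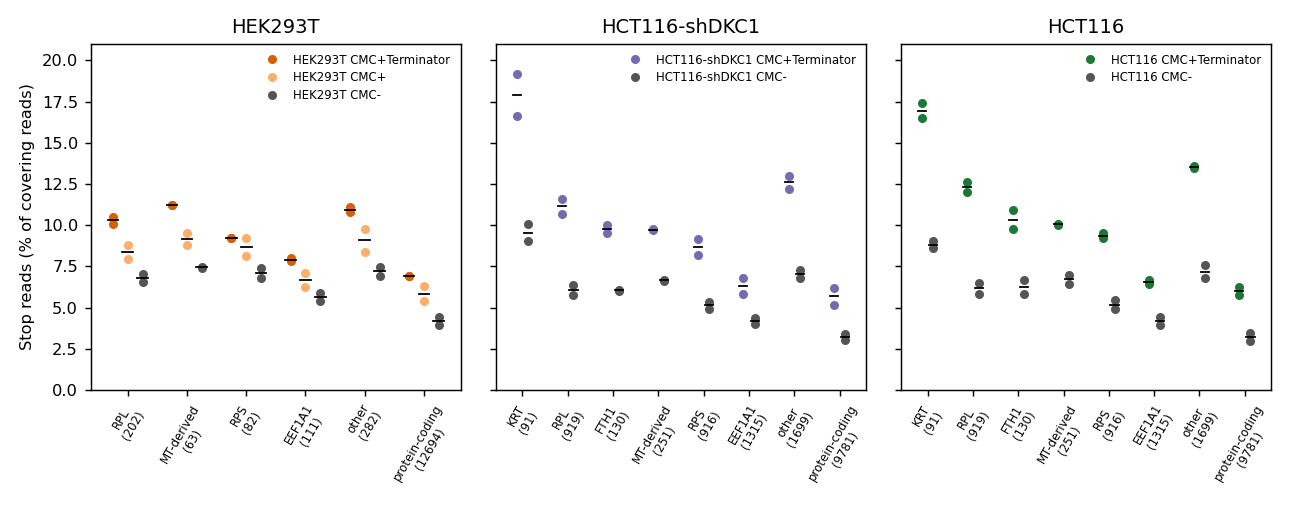
Stop reads as percent of covering reads, summed over the positions listed in all tables of a fit (number in parentheses), by family and treatment, 1 point per library with the mean as a bar. In each panel the CMC libraries with Terminator lie above CMC-, which the listing partly sets. KRT and RPL copies lie above EEF1A1 copies in HCT116-shDKC1 and HCT116, and KRT and FTH1 copies had 0 positions listed in all HEK293T tables.

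A uridine of RPLP0P6, a copy of the ribosomal stalk protein gene RPLP0, was called in both HCT116-shDKC1 and HCT116 by both tools. HCT116-shDKC1 had 54 and 62 stop reads of 338 and 457 with CMC and Terminator (16.0 and 13.6%), against 16 and 11 of 590 and 665 in CMC- (2.71 and 1.65%). HCT116 had 55 and 49 of 335 and 368 (16.4 and 13.3%), against 13 and 15 of 457 and 617 (2.84 and 2.43%). Every library with CMC and Terminator was above every CMC- library. The log2 change was 2.33 ± 0.20 in HCT116-shDKC1 (edgeR, adjusted p = 2.84e-06) and 2.21 ± 0.20 in HCT116 (adjusted p = 4.29e-06), and DESeq2 gave adjusted p = 0.00121 and 0.00414. RPLP0 itself, which shares the bases, gave 2.38 ± 0.20 and 2.14 ± 0.21. HEK293T showed 4.59 and 4.26% with CMC and Terminator and 3.18 and 2.54% in CMC-.

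FAUP1, a copy of FAU, which encodes a ubiquitin-like protein fused to ribosomal protein S30, had 11 and 9 stop reads of 36 and 34 in HCT116-shDKC1 with CMC and Terminator, against 5 and 2 of 51 and 65 in CMC-. In HCT116 it had 12 and 13 of 42 and 37 (28.6 and 35.1%), against 4 and 1 of 47 and 55 (8.51 and 1.82%). The log2 change was 1.73 ± 0.45 in HCT116-shDKC1 (edgeR, adjusted p = 0.00818), lost under TMM scaling (adjusted p = 0.0621), and 2.58 ± 0.46 in HCT116 (adjusted p = 0.000519). FAU gave 2.42 ± 0.46 and 2.87 ± 0.45. In HEK293T FAUP1 had 13.4% in both libraries with CMC and Terminator and 6.15 and 5.65% in CMC-.

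RPS4XP2 copies RPS4X, a small-subunit protein gene, and had 17.6 and 14.5% stops in HCT116-shDKC1 with CMC and Terminator, against 5.59 and 5.36% in CMC-. In HCT116 it had 16.2 and 25.5%, against 3.67 and 2.33%. Only the HCT116 change passed the test, at 2.39 ± 0.42 (edgeR, adjusted p = 0.000491), whereas HCT116-shDKC1 gave 1.02 ± 0.35 (adjusted p = 0.0676). The difference in response between HCT116-shDKC1 and HCT116 was -1.37 ± 0.58 with an adjusted p of 1.0, so it was not shown. RPS4X, which shares the bases, was called in both. It gave 1.19 ± 0.27 in HCT116-shDKC1 (edgeR, adjusted p = 0.00369) and 1.5 ± 0.28 in HCT116 (adjusted p = 0.00083). Its difference in response was -0.31 ± 0.41.

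KRT8P32, a copy of the epithelial keratin gene KRT8, had 10 and 23 stop reads of 126 and 166 in HCT116-shDKC1 with CMC and Terminator, against 5 and 11 of 198 and 186 in CMC-. In HCT116 it had 15 and 16 of 149 and 147 (10.1 and 10.9%), against 7 and 12 of 188 and 232 (3.72 and 5.17%). The stop reads of the HCT116-shDKC1 groups overlap and those of HCT116 do not. The change was 1.24 ± 0.32 in HCT116-shDKC1 (edgeR, adjusted p = 0.00905) and 1.04 ± 0.32 in HCT116 (adjusted p = 0.0277). Without the replicate block the HCT116 call was lost (adjusted p = 0.0509), and under TMM scaling both were (adjusted p = 0.118 and 0.27). KRT8 gave 1.25 ± 0.34 and 1.17 ± 0.32.

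Called positions were not all uridines. AC084368.1, which shares its bases with SERF2, had at an A 45.2 and 42.3% in HCT116-shDKC1, against 5.13 and 12.1% in CMC-, and 40.6 and 30.8% in HCT116, against 4.17 and 5.77%. Coverage was 24 to 52 reads there. The log2 change was 2.26 ± 0.45 in HCT116-shDKC1 (edgeR, adjusted p = 0.00127) and 2.64 ± 0.52 in HCT116 (adjusted p = 0.00107), and at SERF2 2.12 ± 0.32 and 2.82 ± 0.35.

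Some named positions had the bases of no listed protein-coding gene. GCSHP5, a copy of a glycine cleavage system gene, had 5 and 14 stop reads of 78 and 131 in HCT116-shDKC1 with CMC and Terminator, against 2 and 3 of 36 and 56 in CMC-. In HCT116 it had 13 and 16 of 103 and 101, against 1 and 3 of 31 and 41. The log2 changes of 2.08 ± 0.45 (edgeR, adjusted p = 0.00339) and 3.12 ± 0.43 (adjusted p = 8.08e-05) came with more covering reads. Against covering reads they were 0.72 and 1.36 with adjusted p = 0.351 and 0.0749. MTND5P11, a nuclear copy of a complex I subunit gene, had 16.1 and 27.8% in HCT116-shDKC1, against 9.41 and 12.3% in CMC-, which did not pass the test (0.66 ± 0.32, adjusted p = 0.285). In HCT116 it had 21.6 and 15.8%, against 3.77 and 3.28%, and 2.34 ± 0.46 (adjusted p = 0.00216).

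Several members with the highest stop percent had it without CMC too. MTATP6P2, a nuclear copy of a mitochondrial ATP synthase subunit gene, had at chr5:100052554 54.6 and 64.3% in HEK293T with CMC and Terminator, against 34.4 and 36.5% in CMC-. HCT116-shDKC1 had 52.0 and 50.6%, against 37.7 and 41.1%, and HCT116 48.8 and 57.0%, against 45.5 and 36.9%. Its log2 change was 0.81 ± 0.19 in HEK293T (edgeR, adjusted p = 0.0655), 0.00 ± 0.17 in HCT116-shDKC1 and 0.08 ± 0.18 in HCT116, none of them called. ACTG1P9, a copy of the cytoplasmic actin gene ACTG1, had 91.1 and 96.3% in HEK293T with CMC and Terminator and 89.3 and 92.2% in CMC-, over 9.333 to 15 covering reads. KRT8P43 and KRT8P48 had every covering read stop in HCT116 with CMC and Terminator, 12 of 12 and 10 of 10, against 7 of 7 and 4 of 5 in CMC-. Their calls on stop reads (1.30 ± 0.34, adjusted p = 0.0255) came to 0.12 against covering reads (adjusted p = 0.819). Both were also among the called members named for the largest changes in HCT116-shDKC1.

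The response to CMC and Terminator in HCT116-shDKC1 was set against that in HCT116 by an interaction term, which asks whether the knockdown of DKC1 changed it. No member was called by edgeR or by DESeq2, beside 0.0% of all positions. At an unadjusted p under 0.05, 2 members were higher (0.0479%) and 31 lower (0.743%) in edgeR, beside 0.233 and 0.956% of all positions, and 0 members either way in DESeq2. The median difference was -0.13 for members and -0.03 for all positions. At RPLP0P6 it was 0.12 ± 0.32, at FAUP1 -0.85 ± 0.71 and at KRT8P32 0.21 ± 0.46 (each adjusted p = 1.0). A p that misses the threshold does not show that the responses are alike.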

How the data were processed

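Stops of reverse transcription were listed by the submitters in 10 tables, 1 per replicate of a treatment, with a CMC- control in 8. Per the submitters' processing notes reads were handled with cutadapt 2.8 and STAR (version not given in the sources used here) on hg38. The deposited tables of HCT116-shDKC1 and HCT116 with Terminator hold counts of stop and covering reads, per the file headers, and in the other deposited tables these are expected counts that need not be whole. The authors also deposited RPM columns (stop reads scaled to library size), from which library totals were read. How reads matching several places were counted is not stated. A total of 6 control columns, in the 2 HCT116 tables of CMC alone, have no label tying them to a sample and were not used. HEK293T CMC- values stand in both kinds of HEK293T table, equal within 0.0001 at 99.93 and 99.92% of shared positions.

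Expected counts were rounded. Stop reads were tested with edgeR 4.0.16 (R 4.3.3) on library totals with a replicate block, for positions with 10 stop reads or more in 2 or more libraries, and DESeq2 1.42.0 was an alternative. Other alternatives were TMM scaling, covering reads as offset, no block, no filter, tables fitted alone and each library left out. Called means an adjusted p under 0.05 and at least 2-fold. The series design describes each replicate as a CMC-/CMC+ pair, and deviations of same-numbered libraries correlated at 0.24 to 0.42 in HEK293T and 0.15 to 0.45 in the HCT116 lines. On simulated data with 100 positions changed per fold, 28% of 2-fold and 95% of 4-fold changes were recovered in HEK293T among 14824. In HCT116 it was 18 and 95% among 26153, with 3 false calls each. In the data 33.4 and 26.0% of all positions were called higher with CMC and Terminator, so these rates need not hold there. Named positions were up to 8 called members per comparison by size of change, the best covered member and uridine of each family, up to 8 shared sequences listed in most tables, and per fit the 8 tested uridines with the highest stop percent, each with its protein-coding copies. The members and lists were chosen with earlier results of these data known. Summaries used Python 3.11.15, pandas 2.3.3 and numpy 2.4.6. Some named positions or their sequences are not reported here.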

Additional observations from a re-analysis of the deposited data

How the results depend on the processing

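The number of members called higher with CMC and Terminator depended on scaling and tool, as did the number over all positions. In HEK293T it was 31, against 0 with TMM scaling, 20 against covering reads, 0 with DESeq2, 79 with these tables fitted alone and 3 to 12 with 1 library left out. In HCT116-shDKC1 it was 329, against 97 with TMM scaling, 753 against covering reads, 8 with DESeq2, 218 counted as distinct sequences and 179 to 255 with 1 library left out. In HCT116 it was 493, against 120, 972, 13, 311 and 261 to 319 under the same settings. The cause was not tested. Without the replicate block the counts were 32, 314 and 478, beside 5031, 6313 and 6703 of all positions. With 1 library left out the members' median log2 change was 0.58 to 0.69 in HEK293T, beside 0.77 to 0.86 for all positions. It was -0.14 to -0.03 in HCT116-shDKC1, beside 0.37 to 0.42, and 0.04 to 0.10 in HCT116, beside 0.43 to 0.47. HEK293T with CMC alone and the difference in response between HCT116-shDKC1 and HCT116 stayed at 0 calls under the alternatives run.

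The members' pooled stop percent moved when taken as a median over positions or over positions with at least 20 covering reads. It was 10.5% in HEK293T with CMC and Terminator (13.2% and 9.11%, and 10.4% for positions in both replicate tables), 9.19% with CMC alone (10.8% and 7.93%), 9.03% in HCT116-shDKC1 (13.8% and 7.83%), 9.39% in HCT116 with CMC and Terminator (14.6% and 8.06%, and 9.13% for positions in both replicate tables) and 8.73% with CMC alone (median 11.5%). Single libraries gave 10.5 to 10.5%, 8.53 to 9.85%, 8.73 to 9.34%, 9.24 to 9.54% and 7.52 to 9.93% in this order. In an alternative chosen after seeing the data, with at least 20 covering reads at both positions of a pair, the difference of median stop percents, pseudogene minus protein-coding, was 2.41 points in place of 2.74 in HEK293T with CMC and Terminator, 1.88 in place of 2.18 with CMC alone, and 1.8 in place of 2.15 in HCT116 with CMC and Terminator. Of 213 named log2 changes under alternatives, 169 kept their call, 44 lost it and 0 reversed. Most unshared positions had few covering reads, which limits the precision of their stop percent, and counts at copies of a sequence are not independent.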
